A study of Homo sapiens with 4 samples.

Results

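The HOX gene clusters are 4 compact groups of homeobox genes, and the 38 protein-coding genes described here were those of the RefSeq annotation of GRCh38 whose symbol is HOXA, HOXB, HOXC or HOXD followed by a number, with HOXB13 left out. They were 38 of 20037 protein-coding genes on the main chromosomes. HOXA held 11 of them in chr7:27089993-27203091, HOXB 9 in chr17:48525526-48629358, HOXC 9 in chr12:53935831-54059030 and HOXD 9 in chr2:176084487-176193907, where each span runs 3 kb past its outermost genes. Open chromatin was mapped by ATAC-seq, which sequences DNA at places that a transposase can reach, with 2 libraries from LNCaP cells and 2 from LNCaP-resistance cells. LNCaP is an androgen-responsive prostate cancer cell line and was labelled wild type, with no treatment given. The resistant cells were labelled resistance cells treated with enzalutamide, an inhibitor of the androgen receptor, and per the study's methods such sublines were derived from LNCaP by stepwise selection in rising doses of the drug. The labels give 1 medium with fetal bovine serum for both, whereas per the study's methods the cells were adapted to charcoal-stripped serum, which is poor in androgens, before the selection, so that drug, serum and selection cannot be told apart. The labels name no subline. The study shows ATAC-seq of its most resistant subline and also reports differential peaks for its resistant lines at several stages, so the subline of these libraries is not known. The labels do not say whether the libraries came from separate cultures, so the spread between libraries of a cell type may be technical. The comparison asks where accessible sites of the HOX clusters differed between the parental and the resistant cells.

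HOX genes encode transcription factors that give cells along the body axis their positional identity. Within a cluster the genes lie in the order of the body regions they pattern, from low-numbered genes for the head end to high-numbered genes for the tail end and the limbs, and genes with the same number in different clusters are paralogues. In differentiated cells a cluster is often divided between stretches held closed by Polycomb complexes and stretches that are open, and high-numbered HOX genes pattern the urogenital tract from which the prostate forms.

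For each library the authors deposited the summits of its peaks, that is, the position of highest signal in each peak, and a score that looks like −log10 of a p- or q-value. The lists held 117245 and 107344 summits for LNCaP and 70866 and 45618 for the resistant cells. They give no read counts, so depth is unknown and a missing summit may reflect depth as well as accessibility. Each summit was therefore ranked within its own library, and its percentile is the share of that library's summits that it exceeded or equalled in score. A gene was given the percentile of its strongest summit and 0 where none was listed. The libraries of the 2 cell types are called separated at a gene when both values of 1 cell type exceeded both of the other. With 2 libraries against 2 the smallest two-sided exact permutation p is 0.333, so no test between the cell types was made, and counts of HOX genes are read beside the same counts over all protein-coding genes. All 9 luminal markers had a summit in every library, but so had all 6 neuroendocrine, 3 fibroblast and 2 leukocyte markers, so that presence of a summit did not tell these cell types apart. Summed percentiles of the fibroblast markers ran from 212 to 239 in LNCaP and from 175 to 215 in the resistant libraries, and those of the leukocyte markers from 160 to 169 and from 94.5 to 108. The part of other cell types in the HOX values was not tested.

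The promoters below are shown because a summit fell inside them and because they hold the strongest or the most changed HOX starts that the reference promoter table lists. Each is 250 bases before and 50 after a start, read 5′ to 3′ on the gene's strand from RefSeq GRCh38.p14, and capitals mark the bases from 10 before the first to 10 after the last summit of any library.
HOXA4, chr7:27130708-27131007, minus strand: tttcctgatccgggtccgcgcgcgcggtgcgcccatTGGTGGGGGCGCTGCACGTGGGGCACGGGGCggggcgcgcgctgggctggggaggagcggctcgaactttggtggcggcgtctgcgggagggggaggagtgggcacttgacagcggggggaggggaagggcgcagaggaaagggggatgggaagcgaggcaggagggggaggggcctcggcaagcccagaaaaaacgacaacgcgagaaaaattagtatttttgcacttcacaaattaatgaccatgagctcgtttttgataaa
HOXA13, chr7:27200042-27200341, minus strand: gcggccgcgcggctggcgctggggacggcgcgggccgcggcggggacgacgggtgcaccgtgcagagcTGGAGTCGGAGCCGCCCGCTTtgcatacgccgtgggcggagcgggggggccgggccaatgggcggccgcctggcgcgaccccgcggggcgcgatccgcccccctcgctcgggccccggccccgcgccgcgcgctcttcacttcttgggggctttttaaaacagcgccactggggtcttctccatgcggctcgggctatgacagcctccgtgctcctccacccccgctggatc
HOXA9, chr7:27165488-27165787, minus strand: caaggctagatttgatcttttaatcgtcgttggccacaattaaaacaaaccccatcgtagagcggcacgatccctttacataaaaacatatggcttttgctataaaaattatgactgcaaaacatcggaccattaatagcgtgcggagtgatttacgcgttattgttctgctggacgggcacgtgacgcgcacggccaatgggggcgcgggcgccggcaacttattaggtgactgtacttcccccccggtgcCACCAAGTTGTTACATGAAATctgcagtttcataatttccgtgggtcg
HOXA3, chr7:27150901-27151200, minus strand: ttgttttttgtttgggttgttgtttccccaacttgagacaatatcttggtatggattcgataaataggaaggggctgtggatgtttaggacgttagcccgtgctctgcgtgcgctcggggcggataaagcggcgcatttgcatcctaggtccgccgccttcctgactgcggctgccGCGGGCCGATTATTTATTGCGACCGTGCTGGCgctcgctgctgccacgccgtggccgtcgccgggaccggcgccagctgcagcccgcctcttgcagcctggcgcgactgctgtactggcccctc
HOXC4 and HOXC5, chr12:54016638-54016937, plus strand: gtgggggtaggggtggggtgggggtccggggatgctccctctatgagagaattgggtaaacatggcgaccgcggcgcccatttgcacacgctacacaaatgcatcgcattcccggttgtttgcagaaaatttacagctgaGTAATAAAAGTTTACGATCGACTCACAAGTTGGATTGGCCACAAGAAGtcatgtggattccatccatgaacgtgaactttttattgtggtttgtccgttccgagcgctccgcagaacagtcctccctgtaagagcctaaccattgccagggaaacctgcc
HOXD1, chr2:176188418-176188717, plus strand: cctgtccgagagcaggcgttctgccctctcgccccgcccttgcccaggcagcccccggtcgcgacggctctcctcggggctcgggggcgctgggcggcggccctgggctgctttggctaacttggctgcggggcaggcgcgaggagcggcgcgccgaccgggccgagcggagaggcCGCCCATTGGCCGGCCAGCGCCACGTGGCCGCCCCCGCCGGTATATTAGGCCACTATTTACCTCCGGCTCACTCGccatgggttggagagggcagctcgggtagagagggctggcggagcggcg
In the HOXA4 promoter the strongest summits lay at positions -204, -198 and -194 from the start, in LNCaP replicate 1 and resistant replicates 1 and 2, and a GC box (GGGCGG on either strand) began at -187 within the capitals. The HOXA9 summits of both resistant libraries fell on the same base, 12 bases into the gene. The HOXD1 promoter, with 36 CpG dinucleotides, and the HOXA13 promoter, with 44, were the most CpG-rich of those shown, while HOXA9 had 22 and the HOXC4 promoter 15. Over the 27 HOX promoters in the table the median was 22 CpG dinucleotides and 58.0% GC, against 21 and 62.3% over 22199 protein-coding promoters. A CCAAT box (CCAAT on either strand) was present in 66.7% of HOX promoters and 34.7% of all promoters, a TATA box (TATAAA) in 18.5% and 9.47%, a GC box in 48.1% and 56.3%, and the HOX-PBX site TGATTNAT in 7.41% and 2.06%. These letter matches describe the sequences and do not locate bound factors.

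At gene starts the HOX clusters were more often accessible in the resistant cells. A summit within 1 kb of a start was listed for 15 and 13 of 38 genes in the LNCaP libraries and for 24 and 22 in the resistant libraries. In percent these were 39.5 and 34.2 in LNCaP and 63.2 and 57.9 in the resistant cells, whereas 69.5, 68.5, 72.4 and 68.7% of 15843 protein-coding genes with a listed start had one in the same order of libraries. HOX genes without a listed start were measured at the 5′ end of the gene, so the 2 shares rest in part on unlike definitions of a start. HOX starts were thus below the protein-coding share in all 4 libraries, and the distance to it was smaller in both resistant libraries. The LNCaP lists were the longer ones, and the part of sequencing depth in these shares was not tested.

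**Figure D1:**
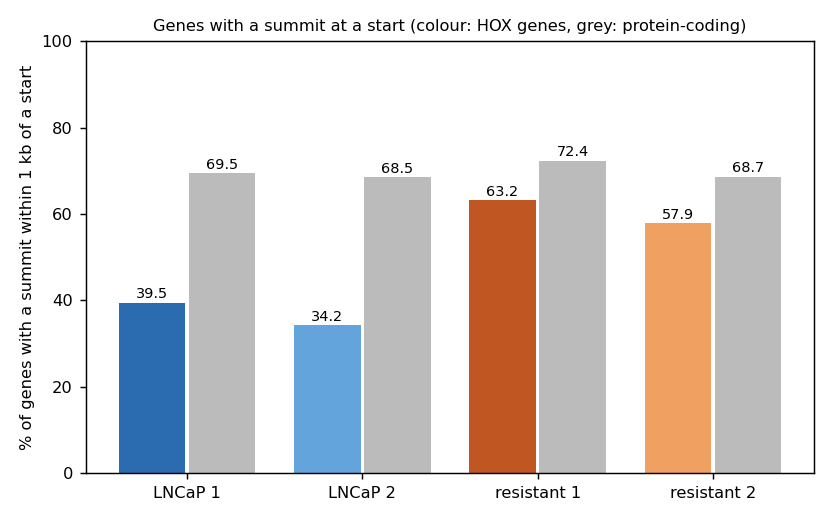
Bars give the percent of genes with at least 1 summit within 1 kb of a start in each library, in colour for the 38 HOX genes and in grey for 15843 protein-coding genes with a listed start. HOX genes without a listed start were measured at the 5′ end of the gene. The HOX bars stand at 39.5 and 34.2% in LNCaP and at 63.2 and 57.9% in the resistant libraries, and the grey bars between 68.5 and 72.4%.

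Of the 38 HOX starts, 8 had a summit in both resistant libraries and in neither LNCaP library, namely HOXA7, HOXA13, HOXB4, HOXB6, HOXB7, HOXC10, HOXD8 and HOXD9. This is 21.1% of HOX genes, where 2.87% of protein-coding genes had that pattern. The opposite pattern was seen for HOXC8 and HOXD1, and over protein-coding genes for 1.81%. The protein-coding shares cover listed starts only. Among the HOX genes just named, HOXA7, HOXA13, HOXD8 and HOXD1 had a listed start, and the others were measured at the 5′ end of the gene. A summit in all 4 libraries was present at the starts of 10 HOX genes (26.3%), where 62.9% of protein-coding genes had one. Of the other HOX genes 12 had none (31.6%, background 23.6%) and 6 had some other combination (15.8%, background 8.76%). These are counts of genes: HOXC4, HOXC5 and HOXC6 share 1 start and its values, and HOXA3 was scored at the strongest of its 7 starts. By percentile, the libraries separated with higher values in the resistant cells at 16 starts (42.1%, background 21.9%) and with lower values at HOXC8 and HOXD1 alone (5.26%, background 16.3%). Without resistant replicate 2, which had the shortest list, higher values were found at 23 starts (background 39.3%), and without resistant replicate 1 lower values at 5 (background 31.5%). Within replicate number 1, which the labels also give as the batch, the pattern of a summit in the resistant library alone was found at 11 starts (background 5.89%), and within replicate number 2 also at 11 (background 4.66%). A summit in LNCaP alone was found at 2 starts within each number (5.26%, background 3.0 and 4.49%). With equal numbers of the highest-scoring summits per library, 16 starts had a summit in both resistant libraries and neither LNCaP library (background 9.71%) and none had the opposite pattern (background 0.732%). Equal lists remove more summits from LNCaP than from the resistant cells, and the background moved the same way, so these counts say nothing of list length or depth and are read only beside their background.

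**Figure D2:**
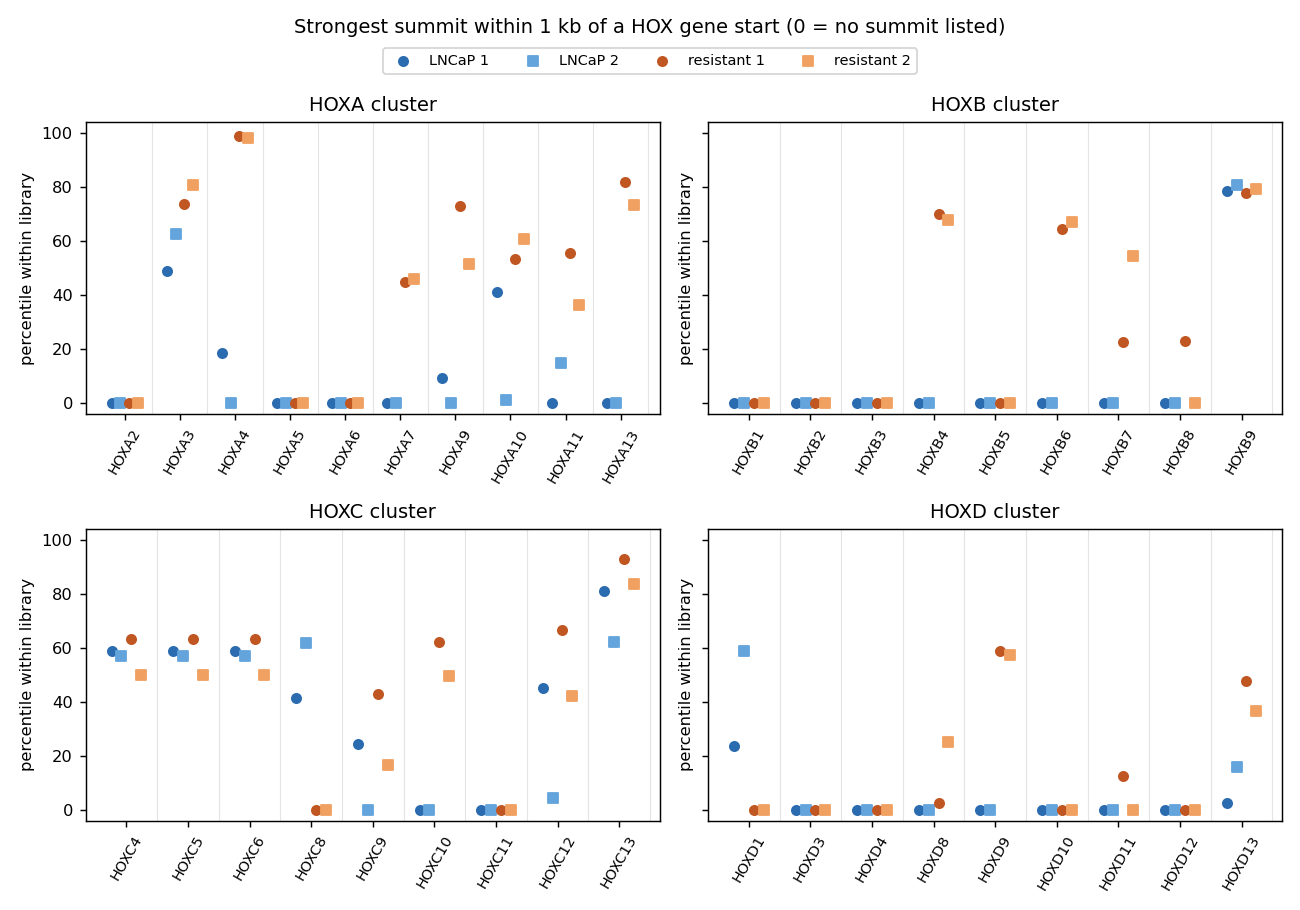
Points give, for each drawn HOX gene and library, the percentile within the library of the strongest summit within 1 kb of a start, with 0 where no summit was listed. The resistant points stand above the LNCaP points at every drawn HOXA gene with a start summit, from HOXA3 to HOXA13, while HOXB9 holds the same level in all 4 libraries and HOXC8 and HOXD1 have points over 0 in LNCaP only.

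The HOXA cluster carried the largest differences. HOXA4, a mid-cluster gene of the cervical and thoracic level, had its start summit at percentile 18.4 in LNCaP replicate 1, none in LNCaP replicate 2, and at 98.7 and 98.2 in the resistant libraries. Both resistant values were thus near the top of their lists, and the difference of 89.2 points exceeded the pooled SD of 9.20 between libraries of a cell type. The site (27130951 to 27130961) lies upstream of HOXA4 and inside the long annotated body of HOXA3, which patterns the pharyngeal arches, so that it also gave HOXA3 its values of 98.7 and 98.2 in the resistant cells, while the LNCaP values of HOXA3, 57.4 and 62.7, came from other sites of that gene. At the starts of HOXA3 itself the values were 48.7 and 62.7 against 73.6 and 80.6, a smaller separation in the same direction.

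HOXA13, the last gene of the cluster and needed for the hand, foot and genital tract, had no summit in either LNCaP library and was at 81.9 and 73.3 in the resistant libraries. The summits lay at 27200263 and 27200348, upstream of its start, and a second and weaker region inside the gene at 27199414 to 27199432 was also found in the resistant libraries alone, at 18.3 and 26.1. HOXA9, a regulator of blood stem cells, had a start summit at 9.38 in LNCaP replicate 1, none in LNCaP replicate 2, and at 73.0 and 51.6 in the resistant libraries. HOXA7 had none in LNCaP and 44.9 and 46.0 in the resistant cells, and HOXA11 none and 15.0 against 55.5 and 36.5. At these genes no LNCaP value reached a resistant one.

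HOXA10, which patterns the uterus and male reproductive tract, went both ways. Its strongest site lies inside the gene (27175358 to 27175433) and stood at 95.8 and 98.6 in LNCaP, the highest of any HOX site there, against 89.6 and 75.5 in the resistant libraries. HOXA10 has 2 listed starts, and this site lies upstream of the one at 27174320, just beyond the 1 kb limit, so it was not counted at a start. The start summit, which lay at the other start at 27179861, stood at 41.2 and 1.27 in LNCaP and at 53.3 and 60.7 in the resistant libraries. The internal site was thus lower and the site at the second start higher in the resistant cells, with no overlap at either. That HOXA10 counts among the starts with higher values depends on the 1 kb limit. HOXA2, HOXA5 and HOXA6 had no summit within 3 kb in any library. HOXA6 lay 3229 bp from the nearest summit of a site that was listed in all 4 libraries and counted for its neighbours. That site stood at 48.7 and 62.7 in LNCaP and at 73.6 and 80.6 in the resistant libraries.

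In the HOXB cluster 3 starts were listed in the resistant libraries alone, and HOXB9 held the same level in both cell types. HOXB4, used to expand blood stem cells, had none in LNCaP and 70.0 and 67.7 in the resistant libraries, at 48578446 and 48578487. HOXB6 had no start summit in LNCaP and 64.4 and 67.0 in the resistant libraries, and HOXB7 none and 22.5 and 54.6. No LNCaP library had a summit at any of these starts, and the HOXB7 summits of the 2 resistant libraries fell in different regions. HOXB9, at the high-numbered end, had start summits at 78.4 and 80.7 in LNCaP and 77.7 and 79.2 in the resistant cells, a difference of -1.08 points against a pooled SD of 1.38.

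Away from starts, sites of the HOXB cluster differed in both directions. Those inside HOXB2 at 48543563 to 48543617 (26.9 and 19.7) and inside HOXB3 at 48587682 to 48587751 (30.9 and 5.44) were listed in the resistant libraries alone. Several others were lower in the resistant cells. The strongest HOXB site, inside HOXB3 at 48585522 to 48586055, stood at 88.6 and 91.9 in LNCaP and 78.1 and 80.0 in the resistant libraries. The site next to HOXB2 at 48546970 to 48547098 stood at 67.5 and 39.4 in LNCaP, at 9.34 in resistant replicate 1, and was not listed in resistant replicate 2. Inside HOXB6, the site at 48597944 to 48597957 stood at 51.3 and 72.8 in LNCaP and was not listed in the resistant cells. Over the HOXB6 gene body these differences ran in opposite directions, and its strongest summit stood at 51.5 and 72.8 in LNCaP and at 64.4 and 67.0 in the resistant libraries, which overlap. HOXB8 had 34.0 and 54.6 in the resistant libraries against none and 4.17 in LNCaP, from summits it shared in part with HOXB7. HOXB1 and HOXB5 had no summit in any library.

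The HOXC cluster held the most summits of the 4 in LNCaP, 16 and 18, and all 9 of its genes had a summit in all 4 libraries. HOXC13, which acts in hair and nail, had the strongest HOXC start, at 81.0 and 62.0 in LNCaP and 92.6 and 83.5 in the resistant libraries. HOXC10, of the lumbar level, had no start summit in LNCaP and 62.0 and 49.5 in the resistant cells. In the other direction HOXC8, a thoracic gene, had a start summit at 41.4 and 61.7 in LNCaP, at 54008947 to 54008959, and none in the resistant libraries. Start summits of HOXC10 and HOXC8 were thus listed in opposite cell types.

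HOXC4, HOXC5 and HOXC6 share 1 annotated start, whose summit stood at 58.9 and 56.8 in LNCaP and 63.02 and 50.04 in the resistant libraries and did not separate them. Downstream of it, a site at 54017986 to 54018374 stood at 75.2 and 72.9 in the resistant libraries, at 48.9 in LNCaP replicate 2, and was not listed in LNCaP replicate 1. Near the 3′ end of HOXC4, a site at 54052804 to 54052881 stood at 77.0 and 78.2 in LNCaP, was not listed in resistant replicate 1 and stood at 9.58 in resistant replicate 2. HOXC4 therefore differed little by its strongest summit (77.0 and 78.2 against 75.2 and 72.9), although these summits lay at different sites. HOXC9, HOXC11 and HOXC12 overlapped between the cell types, and HOXC11 had its strongest summit beyond its 3′ end at 81.2 and 59.2 in LNCaP and 70.3 and 31.1 in the resistant cells.

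In the HOXD cluster the low-numbered end was listed in LNCaP alone and HOXD9 in the resistant cells alone. HOXD1 was the only HOX gene with a summit within 3 kb in both LNCaP libraries and no resistant library, at 50.7 and 58.8 over the gene and at 23.7 and 58.8 at its start. Nearby, a site inside the long non-coding RNA genes HAGLR and HAGLROS at 176178429 to 176178472 stood at 54.4 and 65.0 in LNCaP and was not listed in the resistant libraries. HOXD9, a gene of the lumbar level and the limb, had no summit in LNCaP and 58.9 and 57.3 in the resistant libraries, at 176122694 and 176122736. The same summits lie within 3 kb of HOXD10 and gave it the same values.

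At the high-numbered end, HOXD13, needed for the digits and the genital tubercle, again differed in direction between sites. Its start summit stood at 2.58 and 15.9 in LNCaP and 47.8 and 36.5 in the resistant libraries, whereas the site it shares with HOXD12 upstream of HOXD12 stood at 58.9 and 62.7 in LNCaP and 42.4 and 16.6 in the resistant libraries. HOXD11 was lower in the resistant cells, at 51.7 and 44.9 against 12.4 and 23.8, although the value of resistant replicate 1 came from another site, at 176106996. HOXD8 had a start summit in the resistant libraries alone, but at 2.65 and 25.04 it was the weakest of the 8. HOXD3 and HOXD4 had no summit in any library.

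Over gene bodies with 3 kb on either side, 22 of the 38 HOX genes had a summit in all 4 libraries (57.9%, where 77.1% of protein-coding genes did), and 7 had none (18.4%, background 10.5%). HOXA13, HOXB4, HOXD9 and HOXD10 had a summit in the resistant libraries alone (10.5%, background 0.888%) and HOXD1 in LNCaP alone (2.63%, background 3.15%). HOXA4, HOXB7, HOXB8 and HOXD8 had a summit in both resistant libraries and 1 LNCaP library, and they were the 4 genes with any other combination (10.5%, background 8.34%). The windows of HOX genes were shorter than those of other genes, with a median of 9481 bp against 30115 bp, and the part of window length in these shares was not tested. The libraries separated with higher values in the resistant cells at 17 genes (44.7%, background 16.3%) and with lower values at 8 (21.1%, background 34.5%). With equal numbers of summits per library the split was 22 higher and 1 lower, and the background moved the same way, to 43.0 and 14.4%. The median difference over the 38 genes was 1.77 points, against -0.99 over protein-coding genes, and with equal numbers of summits 25.8 against 3.42. Since 7 HOX genes with no summit enter at 0, the median over the 31 with one was 16.2 points, against -2.04 over protein-coding genes with one. The 12 largest higher values included, beside those given above, HOXB7 (none and 4.17 in LNCaP, 64.4 and 56.5 in the resistant libraries), HOXA9 (28.9 and 22.8 against 73.0 and 53.4) and HOXC10 (24.7 and 27.2 against 62.0 and 61.6). HOXA11 stood at 41.2 and 15.0 against 55.5 and 60.7, and HOXA7 at 48.7 and 62.7 against 73.6 and 80.6, so that at HOXA7 the nearest values of the cell types lay close. The 8 genes with lower values were HOXA10, HOXB2, HOXB3, HOXC4, HOXD1, HOXD11, HOXD12 and HOXD13. Of these HOXB2, with 67.5 and 39.4 against 26.9 and 19.7, and HOXD13, with 58.9 and 62.7 against 51.2 and 36.5, took their values from different sites in the 2 cell types, as did HOXC4. So did 5 of the 17 genes with higher values, namely HOXA3, HOXB7, HOXC5, HOXC6 and HOXC10, and another 5, HOXA9, HOXA11, HOXB8, HOXC13 and HOXD8, did in part. Among the 8 genes with lower values, HOXD11 also did in part. The genes are not independent, since 15 of the 38 took their strongest summit in some library from a site that was also the strongest of another HOX gene, and 31 windows overlapped. At the 3 kb limit, a summit 3016 bp from HOXC11 at percentile 27.1 was not counted, and the farthest one counted lay 2861 bp from HOXC8 at 38.5.

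**Figure D3:**
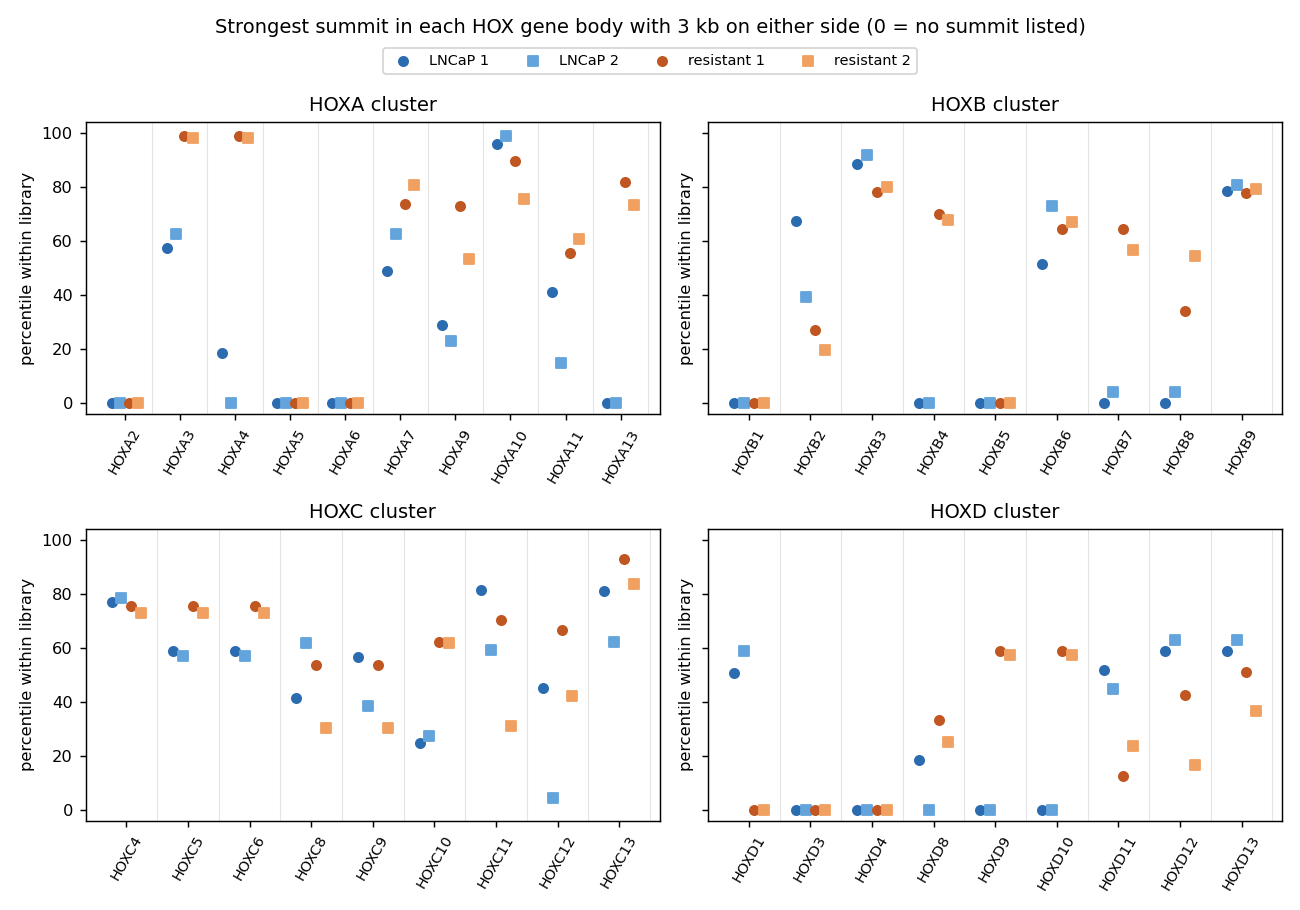
Points give, for each drawn HOX gene and library, the percentile within the library of the strongest summit in the gene body with 3 kb on either side, with 0 where none was listed. From LNCaP replicate 1 to resistant replicate 1, HOXA4 rises from 18.4 to 98.7 and HOXA13 from 0 to 81.9. HOXA10 and HOXB3 are lower in both resistant libraries, and HOXD1 drops to 0.

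Counted over whole clusters, summits in the HOX clusters did not follow the shorter resistant lists. The 4 clusters together held 46 and 47 summits in LNCaP and 61 and 45 in the resistant libraries, a ratio of the means of 1.14, while the whole lists had a ratio of 0.52 and summits in protein-coding gene windows had a ratio of 0.54. Within 1 kb of a protein-coding gene end the whole lists fell less, from 15196 and 15462 summits to 15019 and 12727. The clusters held 14 and 14 there against 30 and 22. HOXA held 12 and 10 summits in LNCaP and 18 and 15 in the resistant libraries, with no overlap. HOXB held 9 in both LNCaP libraries and 16 and 9 in the resistant libraries, so its ratio of 1.39 rested on resistant replicate 1 and was 1.00 without it. HOXC, with 16 and 18 against 17 and 14, and HOXD, with 9 and 10 against 10 and 7, had ratios of 0.91 and 0.89 and overlapped. With equal numbers of summits per library, where whole lists have a ratio of 1 by construction, the ratios were 4 for HOXC, 2.40 for HOXD and 3.40 over the 4 clusters, and with a score of at least 10 the HOXC ratio was 1.54. Within replicate numbers 1 and 2 the ratio over the 4 clusters was 1.33 and 0.96.

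The summits that the resistant libraries did hold were placed closer to HOX starts. In LNCaP 14 and 11 summits of the clusters lay within 1 kb of a HOX start (30.4 and 23.4%), and in the resistant libraries 29 and 24 (47.5 and 53.3%), with no overlap. Near either end of a protein-coding gene, a measure available for every summit, the shares were 30.4 and 29.8% against 49.2 and 48.9% for the HOX clusters and 12.97 and 14.4% against 21.2 and 27.9% for the whole lists. The shift toward gene ends was thus present in the whole lists too. In HOXA the number of summits at a HOX start went from 5 and 4 in LNCaP to 12 and 11 in the resistant libraries, and in HOXB from 1 and 1 to 6 and 5. HOXC kept 6 and 4 against 6 and 5, and did not show it.

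**Figure D4:**
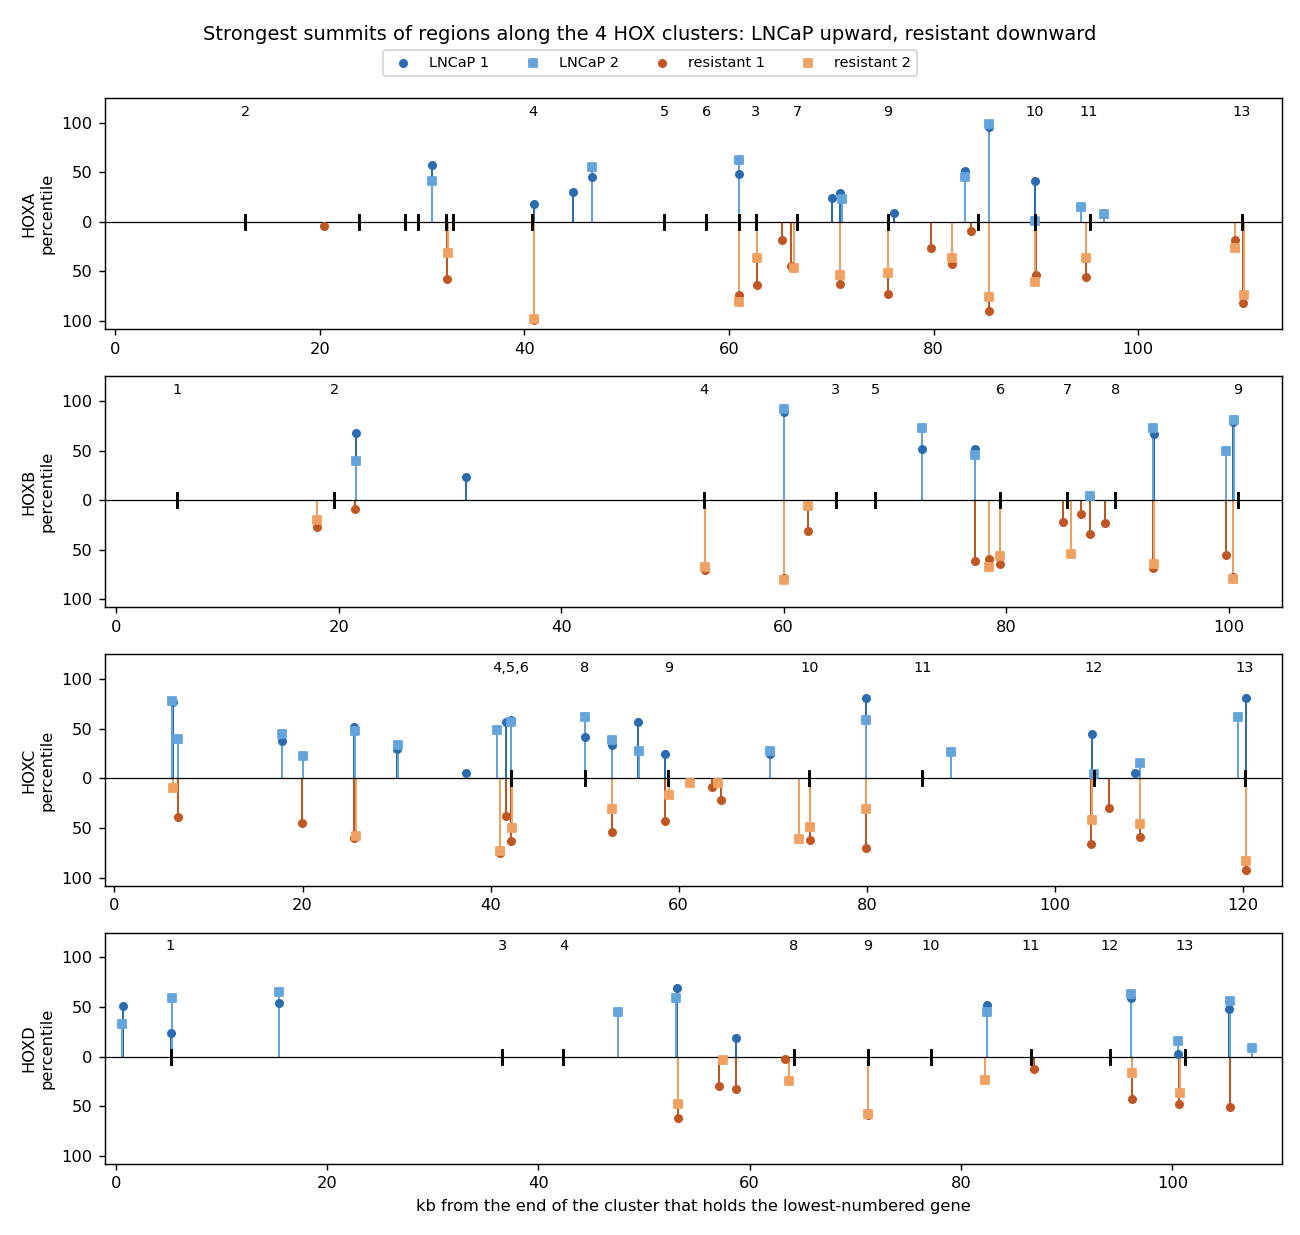
Each stem is the strongest summit of a drawn accessible region in 1 library, at its distance in kb from the low-numbered end of the cluster, with its percentile drawn upward for LNCaP and downward for the resistant libraries. Black ticks are annotated starts of the drawn HOX genes, with gene numbers along the top. Downward stems without an upward partner stand at the ticks of HOXA13, HOXB4, HOXB6 and HOXD9. Those at the tick of HOXA9 have a short upward stem of LNCaP replicate 1 beside them, at 9.38. The stretches of HOXD3 and HOXD4, HOXA5 and HOXA6 and HOXB1 are empty.

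Windows of 250 bp to the left and right of every summit were joined into regions wherever they overlapped, across all 4 libraries, which gave 87 regions in the clusters out of 150917. A region was called shared when all 4 libraries had a summit in it and specific when both libraries of 1 cell type and neither of the other did. The HOX clusters held 17 resistant-specific regions (19.5%, background 3.84%), 12 LNCaP-specific regions (13.8%, background 27.5%) and 16 shared ones (18.4%, background 21.1%), and the other 42 were present in some other combination (48.3%, background 47.6%). Without resistant replicate 2 the resistant-specific regions numbered 27 (background 12.0%). Within replicate numbers 1 and 2 they numbered 35 and 25 against 20 and 26 LNCaP-specific regions, where the background was 15.7 and 9.24% against 48.9 and 60.8%. Resistant-specific regions numbered 7 in HOXA, 5 in HOXB, 2 in HOXC and 3 in HOXD.

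The classes also differed in place. Of the resistant-specific regions 12 of 17 had their middle within 1 kb of a HOX start, with a median distance of 470 bp. The starts were those of HOXA3 (2 of its alternative starts), HOXA7, HOXA9, HOXA13 (2 regions), HOXB4, HOXB6 (2 regions), HOXC10, HOXD8 and HOXD9. Of the LNCaP-specific regions 2 of 12 did, at HOXC8 and HOXD1, and of the shared regions 7 of 16, including those at HOXA3, HOXA10, HOXB9, the common start of HOXC4 to HOXC6, HOXC12 and HOXD13. Near either end of a protein-coding gene the shares were 70.6, 33.3 and 31.2% for resistant-specific, LNCaP-specific and shared regions of the clusters, and 16.6, 3.79 and 32.0% over all regions. Among specific regions away from starts, those inside HOXA3 at 27136595 to 27136596 (45.7 and 55.3) and inside HOXA10 at 27173026 to 27173043 (50.8 and 45.1) were LNCaP-specific.

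**Figure D5:**
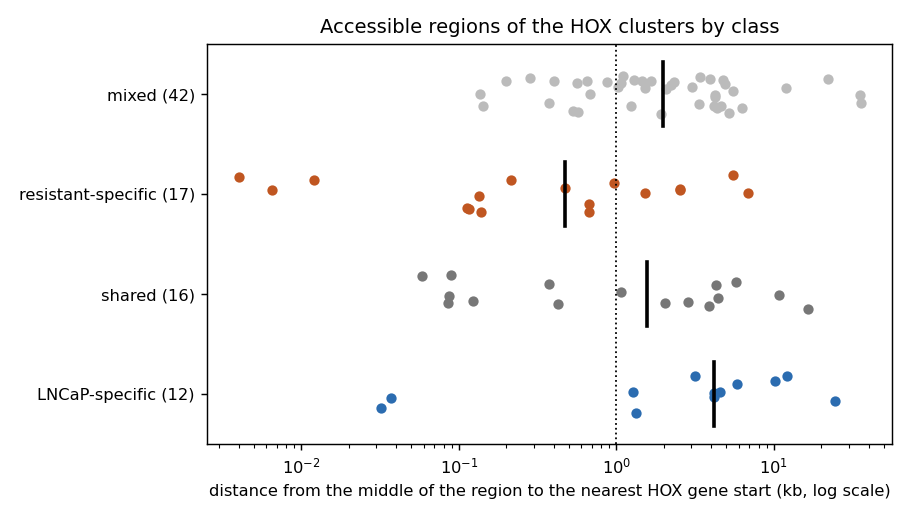
Points are the 87 accessible regions of the HOX clusters by class, placed on a log axis by the distance in kb from their middle to the nearest HOX start, with a black bar at the median and a dotted line at 1 kb. Resistant-specific regions have a median of 470 bp and LNCaP-specific regions one of 4171 bp, with 12 of 17 and 2 of 12 left of the dotted line.

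By position along the clusters, high-numbered genes had a summit within 3 kb most often in every library. Of the 15 genes numbered 9 to 13, 12 had one in each LNCaP library and all 15 in each resistant library. Of the 15 numbered 4 to 8, 8 had one in each LNCaP library and 11 in each resistant library, and of the 8 numbered 1 to 3, 5 and 4. Over protein-coding genes the share was 86.1 and 85.3% in LNCaP and 84.1 and 79.6% in the resistant libraries. The low-numbered genes were thus the lowest by share in the resistant libraries alone, and the middle genes in LNCaP. Values were higher in both resistant libraries at 2 low-numbered, 8 middle and 7 high-numbered genes (background 16.3%). They were lower at 3, 1 and 4 in the same order (background 34.5%). The low-numbered genes, at 2 and 3 of 8, thus lay near both backgrounds. At starts, higher values were found at 2 of the low-numbered genes, 6 of the middle genes and 8 of the high-numbered genes (background 21.9%). These tiers follow the clusters unevenly, since HOXB holds only HOXB9 of the high numbers.

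The clusters also hold non-coding genes, many of which share the sites of the HOX genes beside them. Of 16 long non-coding RNA genes, values were higher in both resistant libraries at 8 and lower at 4, where the shares of protein-coding genes were 16.3 and 34.5%, but 10 of the 16 took a strongest summit that was also the strongest of a HOX gene. HOTTIP, transcribed from the HOXA13 side and known for activating 5′ HOXA genes, had the HOXA13 summits and so none in LNCaP and 81.9 and 73.3 in the resistant cells. HOXC-AS3 and HOXC-AS2 were listed in the resistant libraries alone. HAGLR and HAGLROS, beside HOXD1, were listed in LNCaP alone. HOTAIR, in the HOXC cluster, had a summit in LNCaP replicate 2 at 27.1 and in no other library.

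Of 6 microRNA genes in or beside the clusters, MIR196B and MIR10A had a summit within 3 kb in the resistant libraries alone. MIR196B, next to HOXA9, had none in LNCaP and 42.2 and 36.5 in the resistant libraries, and MIR10A, upstream of HOXB4, none and 70.0 and 67.7 from the HOXB4 site. MIR196A2 in the HOXC cluster had 24.7 and 27.2 in LNCaP and 22.2 and 4.37 in the resistant libraries, MIR196A1 beyond HOXB9 had 26.4 in resistant replicate 1 alone, MIR615 had 52.0 and 47.9 against 60.3 and 57.6, and MIR10B had none. The mature sequences are shown because the miR-196 genes of 3 clusters share a seed (bases 2 to 8, in capitals) and are known to target HOX transcripts, while the values near their genes differed.
hsa-miR-196b-5p, from MIR196B in the HOXA cluster: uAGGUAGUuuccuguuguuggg
hsa-miR-196a-5p, from MIR196A1 and MIR196A2: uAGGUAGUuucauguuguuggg
hsa-miR-10a-5p, from MIR10A in the HOXB cluster: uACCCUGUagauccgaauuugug

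Genes outside the clusters that act with HOX proteins are given for comparison. Of 9 cofactor genes of the PBX, MEIS and PKNOX families, which bind DNA together with HOX proteins, 7 had a summit in all 4 libraries. Values were higher in both resistant libraries at 2, PKNOX1 among them, and lower at 2, MEIS3 and PKNOX2. Over protein-coding genes the shares were 16.3 and 34.5%. PKNOX1 went from 79.6 and 69.3 in LNCaP to 91.1 and 87.5, and MEIS3 from 81.3 and 72.7 to 43.0 and no summit. Of 13 related homeobox genes 3 were higher and 5 lower, which is near the shares of 16.3 and 34.5% over protein-coding genes. EVX1, which lies next to HOXA13, had none and 8.84 in LNCaP and 75.1 and 74.6 in the resistant libraries, whereas CDX2, an intestinal regulator of HOX genes, had 95.5 and 95.6 in LNCaP and 70.5 and 37.5 in the resistant libraries. Both separated, in opposite directions.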

How the data were processed

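ATAC-seq peak summits of 2 LNCaP and 2 LNCaP-resistance libraries were analysed, grouped by title. The authors deposited 1 list per library, called separately, with a score for each summit that looks like −log10 of a p- or q-value. Which of these it is, the thresholds and any read shifting are not given in the sources used here. The submitters' processing notes name Bowtie2 2.2.5, SAMtools 1.6, MACS2 2.2.6, deepTools 3.5.2, HOMER 4.11 and edgeR 3.22.5, and hg38. The lists hold no read counts, so depth and its precision are unknown, and scores were used only as ranks within a library.

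The HOX genes, the gene lists and the rule for named genes were chosen with earlier results of these data known. Genes named with values were those whose libraries separated (up to 12 each way), those listed in 1 cell type only, those with the strongest summit of a cluster and those with no summit, plus sites specific to a cell type or strongest in a cluster. Some genes that entered the counts are not reported here by name or drawn in the plots by gene. Gene positions were from RefSeq GRCh38.p14. The reference promoter table held starts for 20 of the 38 HOX genes and for 15843 protein-coding genes in all. For the other HOX genes the 5′ end of the gene on the strand of its cluster was used. Regions were measured to either gene end, since not all genes had a listed start. The computation was tested on simulated lists of 400 genes and 300 planted regions, of which 100% were recovered. Alternatives were other windows, equal numbers of summits, only summits scoring 10 or more, membership by 1 library, percentiles among shared regions, leaving out each library and comparison within replicate numbers. The labels give the replicate number as the batch. Deviations of same-numbered libraries from their group means correlated at 0.002 over 17925 protein-coding genes with a summit and at 0.305 over 31 HOX genes, many of which share summits. Alternatives for gene starts and the stretches of 100 kb beside the clusters were added after seeing the data. Python 3.11.15, numpy 2.4.6, pandas 2.3.3 and matplotlib 3.10.9 were used.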

Additional observations from a re-analysis of the deposited data

How the results depend on the processing

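In all, 155 recomputed summary values kept to the range set for them and 65 did not, and 14 differences of single genes changed sign. Values in parentheses are the background over protein-coding genes or all regions. With equal numbers of summits, 7 genes had a summit in all 4 libraries (67.6%), 13 in the resistant libraries alone (6.06%) and 0 in LNCaP alone (1.67%). Under that setting 1 gene was lower (14.4%), and the median difference was 25.8 points (3.42). At starts the same setting gave 3, 16 and 0 genes (52.2, 9.71 and 0.732%), 0 lower (4.19%) and a median of 25.03 (5.48). Its summit ratios were 5.60 for HOXA, 2.12 for HOXB, 4 for HOXC, 2.40 for HOXD and 3.40 in all. It left 7 shared and 0 LNCaP-specific regions (26.8 and 17.1%). With a score of at least 10, the counts were 11 in all libraries (66.5%), 9 in the resistant libraries alone (1.74%) and 4 lower (25.4%). At starts that setting gave 0 in LNCaP alone (1.24%) and 0 lower (10.4%). Its ratios were 2.10 for HOXA, 1.54 for HOXC, 0.64 for HOXD and 1.4 in all. It left 8 shared (21.2%), 4 LNCaP-specific (21101 of 84473 regions) and 11 resistant-specific regions (4.33%). Without flanks 9 genes had a summit in all libraries, 0 in LNCaP alone, 9 were higher and 4 lower. With 1 kb flanks 7 were in the resistant libraries alone and 2 in LNCaP alone. No background was computed for these flanks. Within 1 kb of a start, 8 were in the resistant libraries alone (2.87%) and 2 in LNCaP alone (1.81%). At that window 10 were in all libraries (62.9%) and 2 were lower (16.3%). Percentiles among shared regions were available for 17 HOX genes, 11 higher and 2 lower, with a median of 15.6 (44.0 and 18.5% of protein-coding genes, median 4.81).

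Among settings added after seeing the data, listed starts alone covered only HOX genes with a listed start, which are fewer than 38. They gave 5 genes in all libraries (62.9%), 3 resistant only (2.87%) and 1 LNCaP only (1.81%). Of these genes 9 were higher (21.9%) and 1 lower (16.3%), with a median of 3.09 (background 0). The values in parentheses are likewise over listed starts. A start window of 2 kb gave 4 lower, and a window of 500 bp a median of 0, with no background computed for either. The stretches beside the clusters had a ratio of 0.73. Membership by at least 1 library gave 33 shared, 23 LNCaP-specific and 31 resistant-specific regions, again with no background computed.

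Leaving out 1 library at a time gave 2 to 5 lower starts, a median at starts of 0 to 8.82 and 20 to 27 resistant-specific regions. The 5 lower starts (background 31.5%) and the median of 0 (background 0) came without resistant replicate 1. The 27 regions (background 12.0%) came without resistant replicate 2. With the replicate block, replicate 1 gave a median of 11.9 (background 0) and a HOXC ratio of 1.06. It also gave 20 LNCaP-specific and 35 resistant-specific regions (background 48.9 and 15.7%). Replicate 2 gave 13 genes lower (background 58.5%) and 26 LNCaP-specific regions (background 60.8%). At starts it gave 6 lower, where 6026 of 15843 protein-coding genes were lower, and a median of 0 (background 0).

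The sign changed for HOXA10 (35.8), HOXC5 and HOXC6 (-1.33), HOXD11 (6.18) and HOXD13 (32.9) within 1 kb of a start, for HOXB2 (23.3) without flanks and with 1 kb flanks, for HOXC13 (-31.0) without flanks, for HOXC4 (15.6) among shared regions, and with equal numbers for HOXB2 (1.58), HOXC4 (22.3), HOXD11 (11.9), HOXD12 (7.53) and HOXD13 (24.3). The cause was not tested, beyond the other sites that a narrower window leaves. Depth limits every absent summit.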

Other observations

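The 100 kb on either side of each cluster, a stretch chosen after seeing the data, held 38 and 32 summits in LNCaP and 30 and 21 in the resistant libraries, a ratio of 0.73 where the clusters themselves had 1.14. Of its 49 regions 12 were shared, 9 LNCaP-specific and 5 resistant-specific (24.5, 18.4 and 10.2%, background 21.1, 27.5 and 3.84%). Inside the clusters the same shares were 18.4, 13.8 and 19.5%, so that resistant-specific regions were over their background in both places. The ratio of 0.73 likewise lay over the 0.52 of the whole lists. The stretch beyond HOXB9 held 9 and 6 summits in LNCaP and 10 and 7 in the resistant libraries. The stretch beyond HOXC13 held 3 summits in LNCaP replicate 1 and none in the other libraries. Beyond HOXA13, where EVX1 lies, 6 and 6 summits were listed in LNCaP and 5 and 5 in the resistant libraries.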
